A study of Bos taurus with 24 samples.

Results

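Of the 870 miRNA rows counted in the plasma of these heifers, 244 carry a human name (prefix hsa-) and 626 a bovine name (prefix bta-). The 244 human-named rows are described here. They were taken by the prefix alone, a rule that uses no measured value. Members and lists were nevertheless chosen with earlier results of these data known. Reads were compared with the mature miRNAs of cow and human, so that a human name marks a read assigned to a human sequence in a bovine sample. The samples were plasma from 8 Holstein-Friesian heifers, 15 to 17 months old, whose oestrus had been synchronised with a progesterone insert, buserelin (a GnRH analogue) and cloprostenol (a prostaglandin analogue). Each heifer gave 1 small-RNA library at observed oestrus (Day 0) and 1 on each of Days 8 and 16 of that cycle, which made 24 libraries, 8 per day, all from non-pregnant animals that had received the same synchronisation. The comparison of days asks whether a circulating miRNA marks oestrus.

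MicroRNAs are short RNAs that pair with messenger RNAs through a seed near their 5′ end and lower the output of those messages. Cells release them into blood within vesicles or bound to proteins, and the plasma pool mixes RNA from blood cells, endothelium, liver and other organs. In plasma, release by more cells and more release from each cell cannot be told apart. Mature miRNAs differ little among mammals, so a read from a cow can be given a human name when the bovine catalogue lacks the entry, or when a human entry is nearer in sequence or length.

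The mature sequences of the human entries were not held with the data, and the human-named rows are therefore given by name and placement only. The bovine sequences on which the comparisons below turn are shown instead, with the seed (bases 2 to 8) in capitals. The first pair is bovine miR-378 and a form of it that ends earlier, shown because 10 human-named rows belong to the miR-378 family. The others are the bovine miRNAs whose levels followed those of miR-210-3p and miR-802 most closely.
bta-miR-378: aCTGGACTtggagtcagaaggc
bta-miR-378, 20-base form: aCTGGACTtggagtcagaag
bta-miR-455-5p: tATGTGCCtttggactacatc
bta-miR-30a-5p: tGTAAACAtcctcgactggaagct
Both forms of miR-378 keep the same seed and differ in length at the 3′ end, by 22 against 20 bases.

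Total miRNA counts per library ranged from 1299679 to 4700764. Human-named rows took 0.106% ± 0.0460 of them (mean ± SD, n = 24), with a lowest value of 0.0558% and a highest of 0.274%. The highest share was in the Day 0 library of heifer 16, which also had the lowest total count and the lowest share of bta-miR-486 (6.07%, against up to 45.1% elsewhere), an erythrocyte miRNA and the most counted row of the table. Values are given below in RPMM, reads per 1000000 reads mapped to the genome. Limits drawn from an absence of reads cover counting error only, whereas the SE of a fold change also includes the spread between libraries.

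Most human names were never seen. In 137 of 244 rows no read was counted in any library, which at 0 of 103103005 mapped reads allows a level of up to 0.0291 RPMM over all libraries, whereas 36 of 626 bovine rows were without a read. Of the 107 human-named rows with a read, 37 were seen in 1 library only. By the number in the name, 30 of 57 rows numbered below 1000 had a read, 76 of 184 rows numbered 1000 or above, and 1 of 3 let-7 rows.

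A few names held nearly all the reads. The 107 rows held 71309 counts together, of which hsa-miR-210-3p took 47.9%, hsa-miR-4532 24.4%, and the 4 most counted rows 84.0%. A mean of at least 5 counts per library was reached by 20 rows, which held 98.5% of the counts, and 19 of these 20 were seen in all 24 libraries. The other 87 rows held 1060 counts, or 1.49%. In 60 of the 87 there were 10 or fewer counts in all 24 libraries together, and in 29 there was 1.

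**Figure D1:**
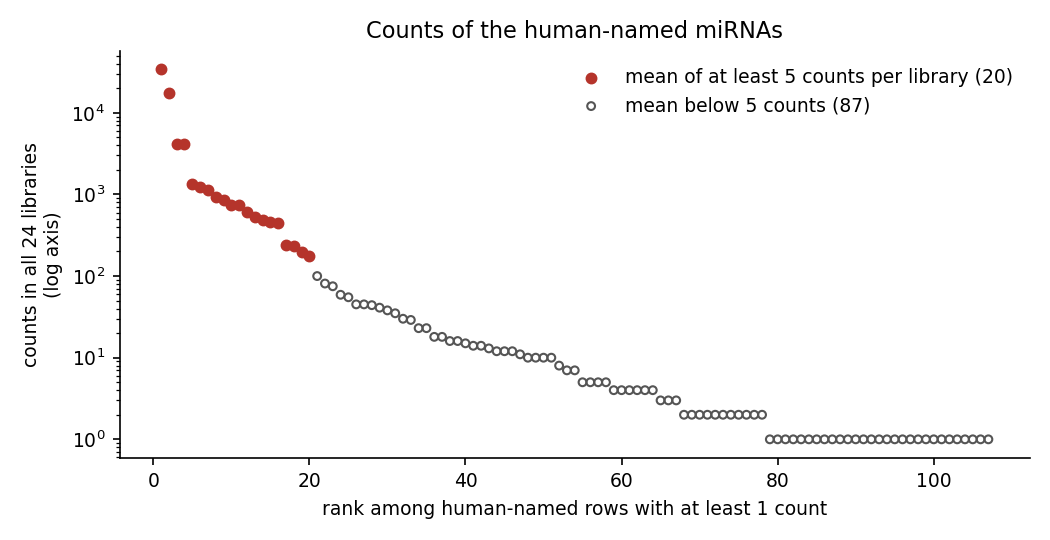
Counts summed over 24 libraries (log axis) for each of the 107 human-named rows with at least 1 count, ranked by that sum, with filled points for the 20 rows with a mean of at least 5 counts per library and open points for the other 87. The sum falls from 34147 for the first row to 1 for the last 29.

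The members differed in the length of the place to which they were assigned. Placed length had a median of 19 bases (17 to 24) in the 20 rows with a mean of at least 5 counts, against 22 bases in the 338 bovine rows above the same limit. It was 19 bases or shorter in 11 of the 20, against 9 of 338 bovine rows (2.66%). Short placements were found in 9 of 13 rows numbered 1000 or above and in 2 of 7 numbered below 1000. Among the 20, the lowest placed length, 17 bases, was that of miR-4532 and miR-3168. Whether the length of a placement bears on its count was not tested.

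The human names were not all without a bovine entry. In 11 of 244 cases the table also held a bovine row of the same name, and in 33 a bovine row of the same number. In some of these pairs the human row was the larger. hsa-miR-1260b had 735 counts and bta-miR-1260b 97, and hsa-miR-378b had 530 against 115. In others the bovine row held nearly all reads, as with 29 counts for hsa-miR-27a-3p against 567004 for its bovine namesake, whose placement starts at the same base. The current RefSeq annotation of the cow lists a miRNA gene of the same name for 8 of the 20 most counted rows. For 4 of these (miR-210-3p, miR-210-5p, miR-574-3p and miR-652-3p) the table held no bovine row of that number.

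Some human-named rows lay beside a bovine row as the other arm of one hairpin would. In all, 9 of 244 lay within 100 bases of a bovine row on the same strand, and 6 of these had reads. Among the 6 is hsa-miR-27a-3p, which starts at the same base as bta-miR-27a-3p and so shares the arm of that row. hsa-miR-1306-3p, from a hairpin that in humans is carried by the DGCR8 transcript, was placed on chromosome 17 (76443989 to 76444006), 40 bases from bta-miR-1306. It had 1360 counts against 3316, and its count was 42.7% ± 12.8 of the bovine row (SD, n = 24). hsa-miR-6516-3p lay 41 bases from bta-miR-6516 (55 counts against 30), and hsa-miR-218-2-3p 42 bases from bta-miR-218 (41 against 1055). Coordinates are those of the deposited table, which names no genome build.

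hsa-miR-210-3p was the most abundant member. miR-210 is induced under low oxygen by hypoxia-inducible factor and lowers mitochondrial respiration through the iron-sulfur cluster protein ISCU. The row was placed on chromosome 18 (1194091 to 1194112) and had 335 ± 82.1 RPMM over 24 libraries. Its levels were 215, 315 and 438 RPMM on Day 0 (lowest, median and highest of 8 heifers), 229, 360 and 535 on Day 8, and 207, 335 and 398 on Day 16. The 3 days overlapped over most of their range, and the highest library was that of heifer 34 on Day 8, whose Day 0 library was the lowest of its day. Day 0 against Days 8 and 16 gave a log2 fold change of −0.21 ± 0.14 (SE), with −0.48 to 0.07 within 2 SE (edgeR, adjusted p = 0.492), and Day 0 was higher in 3 of 8 heifers in scaled counts. On Day 8 the change from Day 0 was 0.18 ± 0.16 (adjusted p = 0.622), and on Day 16 0.23 ± 0.16 (adjusted p = 0.521). With each heifer left out in turn, Day 0 against Days 8 and 16 ranged from −0.27 to −0.11, Day 8 against Day 0 from 0.09 to 0.30 and Day 16 against Day 0 from 0.10 to 0.29. The last of these turned to −0.023 when libraries were scaled by total counts. Between Days 16 and 8 the difference of 0.04 ± 0.16 turned sign with other scalings (adjusted p = 0.933).

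The other arm, hsa-miR-210-5p, was placed 11886467 bases away on the same chromosome (13080558 to 13080579), so the placements do not form 1 hairpin. It had 5.94 ± 1.496 RPMM, and its count was 1.87% ± 0.661 of that of miR-210-3p (n = 24). Its range over the libraries was 3.31 to 9.30 RPMM. Day 0 against Days 8 and 16 gave −0.21 ± 0.22 for miR-210-5p (adjusted p = 0.634).

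hsa-miR-4532 was the second most abundant member and varied far more. It is a late human entry with no bovine row of its number, placed over 17 bases of chromosome 10 (45748829 to 45748845). Its levels were 66.6, 129 and 790 RPMM on Day 0, 89.9, 138 and 345 on Day 8, and 69.8, 127 and 236 on Day 16 (lowest, median and highest of 8). The medians lay close together, and the Day 0 mean of 255.9 ± 250.5 RPMM rested on heifers 16, 18 and 20, with 790, 426 and 319 RPMM against 66.6 to 144 in the other 5. Day 0 against Days 8 and 16 gave 0.38 ± 0.26 (edgeR, adjusted p = 0.509), with Day 0 higher in 5 of 8 heifers. When each heifer was left out in turn this value ranged from 0.13 to 0.55.

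hsa-miR-4792 and hsa-miR-802 followed at 45.3 ± 44.3 and 44.8 ± 42.2 RPMM. miR-802 is expressed in liver. Its row was placed on a contig outside the assembled chromosomes (10777 to 10799). It ranged from 18.0 to 226 RPMM on Day 0 (median 30.0), 27.02 to 58.3 on Day 8 (median 41.7) and 14.4 to 83.0 on Day 16 (median 31.5). The libraries of heifer 16 were the highest on Days 0 and 16, and the other libraries of the 3 days overlapped. For miR-4792, on chromosome 18 (59082174 to 59082191), 2 libraries stood above the rest, heifer 18 on Day 0 with 210 RPMM and heifer 34 on Day 16 with 140 RPMM, and the remaining 22 lay between 19.6 and 99.9.

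**Figure D2:**
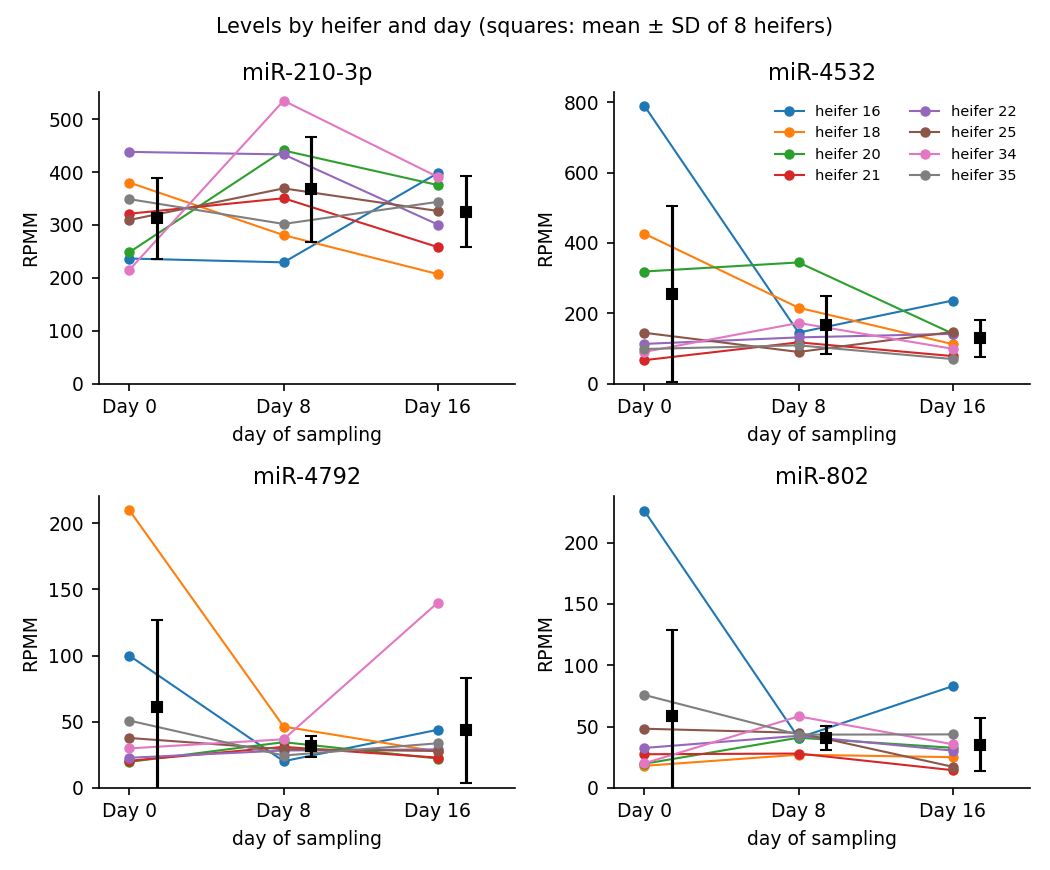
RPMM of the 4 most counted human-named rows on Days 0, 8 and 16, with a line for each of the 8 heifers and squares for the mean ± SD of the day, where bars that would pass below 0 are cut at the axis. miR-210-3p stays between 207 and 535 RPMM in all libraries, whereas heifer 16 reaches 790 RPMM of miR-4532 and 226 RPMM of miR-802 on Day 0.

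The other 16 rows had means of 1.75 to 12.9 RPMM. hsa-miR-1306-3p had 12.9 ± 3.38 RPMM, and hsa-miR-320d, of a family whose mouse member is made by Dicer without Drosha, 12.2 ± 3.26. The latter was 0.459% ± 0.0875 of the count of bta-miR-320a, with 0.322% to 0.668% over the 24 libraries. hsa-miR-574-3p had 10.95 ± 3.33 RPMM, hsa-miR-7977 9.04 ± 2.27 and hsa-miR-6087 8.49 ± 2.75. These 5 rows varied by 25.1% to 32.4% of their mean over the libraries, close to the 24.5% of miR-210-3p.

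In 3 pairs of human-named rows with reads, both rows start at the same base, and their counts were the same or nearly so. hsa-miR-1260a and hsa-miR-1260b start at the same base of chromosome 28 (39224017), had equal counts in 17 of 24 libraries and differed by at most 3 counts in the others. They were tested as separate rows and stand as 2 of the 20 in each count here, although they hold nearly the same values. Their level was 6.81 ± 5.71 RPMM under the name 1260b, with 24.0 RPMM in heifer 22 on Day 8 as the highest and 1.20 in heifer 20 on the same day as the lowest. The rarer pairs, hsa-miR-378h with hsa-miR-422a (45 counts each) and hsa-miR-378f with the row named for both hsa-miR-378b and hsa-miR-378j (18 counts each), had equal counts in all 24 libraries. All 10 human rows of the miR-378 family had reads. Its founding member lies within the PPARGC1B gene and is linked to energy metabolism. They held 894 counts against 131250 in the bovine miR-378 rows, and hsa-miR-378b alone was 0.411% ± 0.114 of bta-miR-378. Their place beside the printed bovine sequence was not resolved, since reads within 1 mismatch can be shared among them.

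Among the remaining rows hsa-miR-3168 was the most uneven, at 4.71 ± 4.68 RPMM. Its 3 libraries in heifer 21 held 0, 1 and 1 counts, whereas heifer 22 on Day 16 had 82 counts (17.5 RPMM). hsa-miR-1290, studied mostly in human tumours, had 4.50 ± 1.77 RPMM and hsa-miR-3135b 4.42 ± 1.82. The last 4 rows were hsa-miR-7705 (2.29 ± 1.31), hsa-miR-4485 (2.16 ± 1.40), hsa-miR-652-3p (1.91 ± 0.793) and hsa-miR-1277-5p (1.75 ± 0.942). hsa-miR-4485, whose human sequence matches mitochondrial ribosomal RNA, was placed on the mitochondrial genome of the cow (2358 to 2377). Below them, 6 of the 87 rarer rows reached 8 to 11 counts in a library. These were hsa-miR-378d and hsa-miR-6516-3p, with 11, and hsa-miR-4448, hsa-miR-378g, hsa-miR-218-2-3p and hsa-miR-378j, all with 8.

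**Figure D3:**
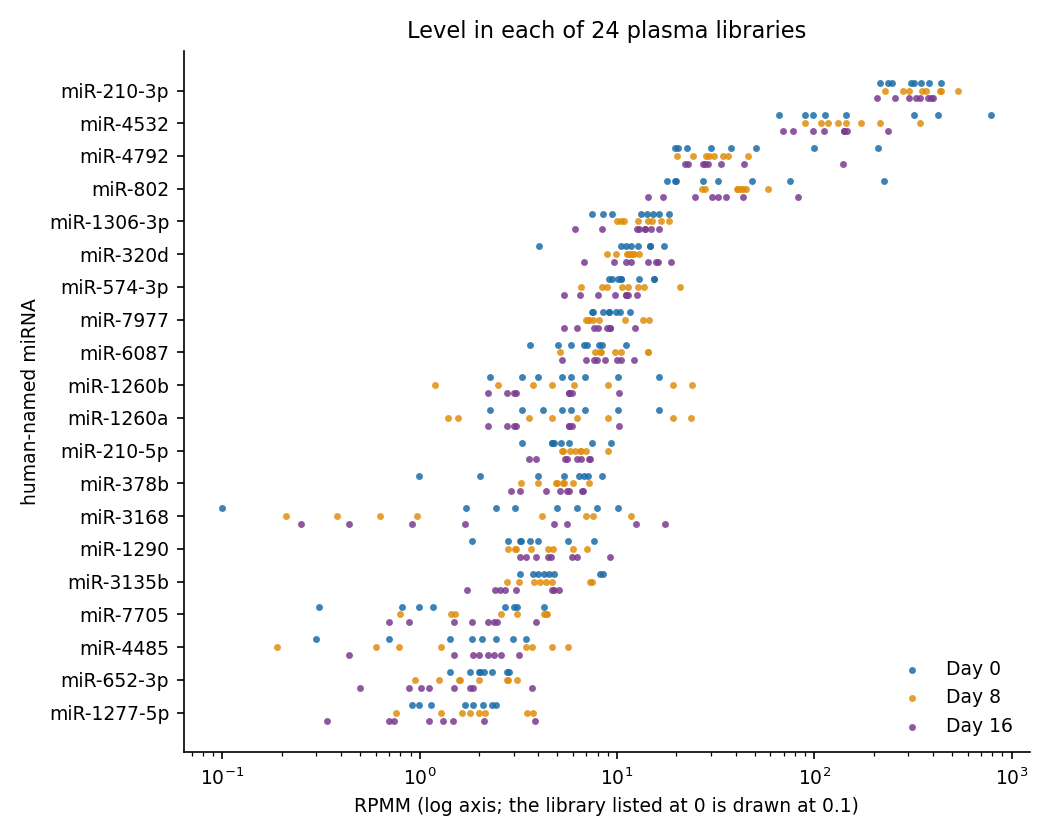
RPMM (log axis) of the 20 human-named rows with a mean of at least 5 counts, 1 point per library and coloured by day, in order of mean count. The 3 days overlap in every row, and the 1 library listed at 0 (miR-3168, heifer 21, Day 0) is drawn at 0.1.

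The days were compared by edgeR's quasi-likelihood test on counts with the heifer as a term, over the 358 rows with a mean of at least 5 counts, of which 20 were human-named. Calls were made at an adjusted p under 0.1. For the effect of day, 0 of 20 human-named rows passed, and 0% of all rows tested passed. For Day 0 against Days 8 and 16 it was 0 of 20 against 1.12% of all rows. For Day 8 against Day 0, Day 16 against Day 0 and Day 16 against Day 8 it was 0 of 20 each, against 0% of all rows.

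At an unadjusted p under 0.05 the count of human-named rows was also 0 of 20 in each comparison of days. The share of all rows tested was 10.9% for the effect of day, 14.8% for Day 0 against Days 8 and 16, 13.4% for Day 8 against Day 0, 11.7% for Day 16 against Day 0 and 6.7% for Day 16 against Day 8. With DESeq2, 0 of 20 passed the adjusted test in each comparison, and 1 of 20 had an unadjusted p under 0.05 for Day 0 against Days 8 and 16. Over all alternatives the unadjusted count was at most 2 of 20 in a comparison of days. It was 2 for Day 16 against Day 0 with total counts, with limma on log2(RPMM + 0.1) and without heifer 18.

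The changes themselves were about as large as those of other rows and were measured less precisely. The median absolute log2 fold change for Day 0 against Days 8 and 16 was 0.18 in the 20 human-named rows and 0.20 in all 358, and the median SE was 0.25 against 0.19. The median of the mean counts was 30.6 in the human-named rows and 183 in the bovine rows tested. In direction, 9 human-named rows were above 0 and 11 below, and over all rows 171 of 358 were above.

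In the contrast of oestrus with the later days, hsa-miR-6087 came nearest to the threshold, with −0.46 ± 0.24 (edgeR, adjusted p = 0.348) and Day 0 higher in 3 of 8 heifers. Its levels were 3.64, 6.93 and 11.1 RPMM on Day 0 (lowest, median and highest), 5.13, 9.06 and 14.4 on Day 8, and 5.28, 8.30 and 12.2 on Day 16, and the days overlapped. For Day 16 against Day 8 the nearest was hsa-miR-320d, at 0.37 ± 0.20 (edgeR, adjusted p = 0.811).

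For Day 8 against Day 0 the nearest was hsa-miR-4792, at −0.65 ± 0.37 (edgeR, adjusted p = 0.460), with Day 8 higher in 4 of 8 heifers. For Day 16 against Day 0 the nearest was hsa-miR-1290, at 0.48 ± 0.26 (edgeR, adjusted p = 0.457), with Day 16 higher in 6 of 8 heifers. Its levels were 1.85, 3.44 and 7.69 RPMM on Day 0, 2.82, 4.07 and 7.02 on Day 8, and 3.23, 4.57 and 9.22 on Day 16, so the days overlapped here too. hsa-miR-3135b lay on the other side, at −0.44 ± 0.26 for Day 16 against Day 0 (edgeR, adjusted p = 0.457), with 3.23 to 8.49 RPMM on Day 0 and 1.74 to 5.11 on Day 16.

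Of the 7 rows numbered below 1000, which include both arms of miR-210, 3 were above 0 for Day 0 against Days 8 and 16, with a median of −0.08. Of the 13 numbered 1000 or above, 6 were above 0, with a median of −0.00061, beside −0.02 over all 358 rows.

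**Figure D4:**
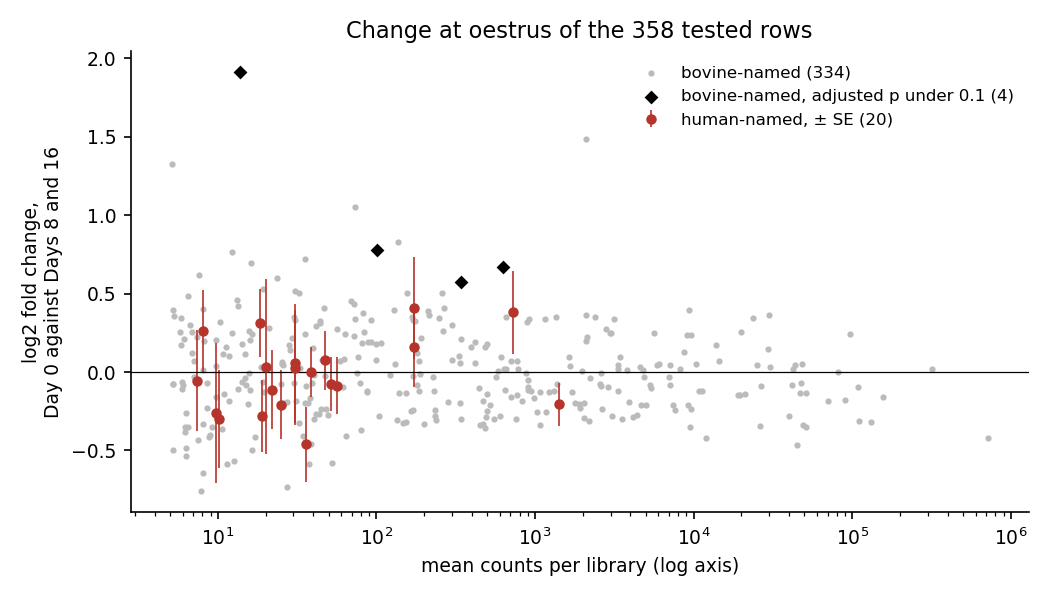
Log2 fold change of Day 0 against Days 8 and 16 by mean count per library (log axis) for the 358 rows tested, with human-named rows and their SE in red. The 20 human-named rows lie between −0.46 and 0.41, and none is among the 4 rows past the adjusted test.

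The summed level of all 244 rows was 796 ± 324 RPMM at oestrus, with 725 ± 152 on Day 8 and 636 ± 144 on Day 16 (mean ± SD of 8 heifers). The lowest, median and highest libraries were 478, 687 and 1438 on Day 0, 525, 660 and 964 on Day 8, and 444, 631 and 863 on Day 16. The days overlapped, and the highest library was again that of heifer 16 on Day 0. Within heifers, Day 16 less Day 0 was −160 ± 323 RPMM, with 1 of 8 heifers higher on Day 16 (p = 0.25, adjusted p = 0.375, exact two-sided sign-change permutation test). Day 16 less Day 8 was −88.9 ± 194, again with 1 of 8 higher (exact p = 0.227, adjusted p = 0.375), and Day 8 less Day 0 was −71.3 ± 427 (exact p = 0.688). The smallest p this design allows is 0.0078. Single animals moved these values. Without heifer 34, Day 16 less Day 0 was −228 (exact test, adjusted p = 0.0469). Without heifer 16, Day 16 less Day 8 was −150 (exact test, adjusted p = 0.0469) and Day 8 less Day 0 was 48.9. In both comparisons with Day 16, the heifer left out was the 1 that was higher on Day 16. The remaining heifers then all had the same sign, and p took the smallest value that their number allows. These p-values are therefore no separate evidence of a fall.

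The number of human-named rows with more than 10 counts in a library was 15.8 ± 2.60 at oestrus, 16.5 ± 2.20 on Day 8 and 15.8 ± 2.25 on Day 16. It ranged from 11 to 20 over all libraries, and no pair of days differed past the threshold (exact p of 0.516 to 1).

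Some members differed between heifers. In the test of the heifer terms, 3 of 20 human-named rows passed at an adjusted p under 0.1, against 15.6% of all rows tested, and 5 of 20 had an unadjusted p under 0.05, against 25.7%. The shares of the human-named rows were thus near those of the whole table. The 3 libraries of a heifer may also share handling, and heifer and handling cannot be told apart.

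hsa-miR-4532 was the first of the 3 (adjusted p = 0.00567). Its mean over a heifer's 3 libraries ranged from 87.3 RPMM in heifer 21 to 390 in heifer 16, 4.47-fold, and heifers 20 and 18 followed with 268 and 251. The remaining 5 heifers lay at 87.3 to 129 RPMM. The call held under all 11 alternatives run (adjusted p of 2.3e-06 to 0.0903) and with each heifer left out (0.00644 to 0.0281).

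hsa-miR-802 had the same adjusted p (0.00567), with heifer means of 23.3 to 117 RPMM. Heifer 16 had 226, 40.8 and 83.0 RPMM on Days 0, 8 and 16, and the next heifer, 35, had 75.8, 43.4 and 43.6. Without heifer 16 the adjusted p was 0.403, and without its Day 0 library alone it was 0.0989. The adjusted p was 0.134 with limma on log2(RPMM + 0.1), and the call held in 9 of 10 alternatives. The third row, hsa-miR-1290, had an adjusted p of 0.0974, with heifer means up to 6.49 RPMM in heifer 16. It passed in 1 of 10 alternatives, and its adjusted p was 0.0750 to 0.221 when a heifer was left out.

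hsa-miR-210-3p varied little between animals. Its heifer means were 288 to 391 RPMM, 1.36-fold from lowest to highest, and the heifer terms had an adjusted p of 0.828. Over all 24 libraries, with days and heifers together, the coefficient of variation was 24.5% for miR-210-3p, 86.3% for miR-4532, 97.8% for miR-4792 and 94.3% for miR-802. This spread is not that between animals alone, and miR-4792 was not among the rows called between heifers.

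The bovine rows that moved most closely with the 5 most counted members are given as a description over 24 libraries, which share heifers, depth and scaling. Each was the nearest of 338 bovine rows by Pearson r of log2 scaled counts. For hsa-miR-210-3p they were bta-miR-455-5p (r = 0.83), bta-miR-140 (0.76) and bta-miR-378c (0.66), the first pair being known from cartilage. Bovine miR-455-5p had 272 ± 73.6 RPMM, and r was 0.75 without the 2 libraries farthest from the median and 0.51 on Day 16. For hsa-miR-4532 they were bta-miR-2892 (0.91), bta-miR-127 (0.83), from an imprinted cluster, and bta-miR-224 (0.81). The count of miR-4532 was 479% ± 158 of that of bta-miR-2892, which had 43.3 ± 41.5 RPMM. With bta-miR-2892, r was 0.96 on Day 0, 0.89 on Day 8 and 0.46 on Day 16 (8 libraries each). With bta-miR-127, r was 0.04 on Day 16 and 0.65 over the days without the 2 farthest libraries, and with bta-miR-224 it was 0.42 on Day 16.

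For hsa-miR-802 the nearest rows were bta-miR-30a-5p (0.90), bta-miR-885 (0.83) and bta-miR-148a (0.77). Without the 2 libraries farthest from the median, r with bta-miR-30a-5p was 0.73. Among markers of other sources, the liver miRNAs bta-miR-192, bta-miR-122 and bta-miR-194 had r of 0.69, 0.68 and 0.58 with miR-802, and the erythrocyte miRNAs bta-miR-486, bta-miR-144 and bta-miR-451 had −0.43, −0.43 and −0.42. The platelet and leukocyte miRNAs bta-miR-191, bta-miR-223, bta-miR-150 and bta-miR-142-5p had 0.11, −0.04, −0.09 and −0.14. With bta-miR-192, r was also 0.54 for miR-210-3p, 0.47 for miR-4532 and 0.24 for miR-4792, but −0.51 for miR-1306-3p. In the same order, r was 0.07, 0.35, 0.09 and −0.03 with bta-miR-122. It was 0.38, 0.35, 0.40 and −0.67 with bta-miR-194, so the liver miRNAs differed among themselves. With bta-miR-486, bta-miR-451 and bta-miR-144, miR-1306-3p had r of 0.58, 0.49 and 0.46. For miR-210-3p, miR-4532 and miR-4792 these lay between −0.01 and 0.28. bta-miR-122, the defining miRNA of hepatocytes, was at 5.55 to 143 RPMM. On Day 0 heifer 16 was high in both miR-802 (226 RPMM) and bta-miR-122 (143), and these r were not recomputed without the farthest libraries. The part of liver or erythrocyte RNA in the differences between heifers was not tested.

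For hsa-miR-4792 the nearest were bta-miR-2904 (0.84), bta-miR-125a (0.72) and bta-miR-199a-5p (0.71), with r of 0.59 for the first without the 2 farthest libraries. On Day 16 alone, r was 0.77 with bta-miR-2904, 0.33 with bta-miR-125a and 0.08 with bta-miR-199a-5p, and the last had a Spearman rho of 0.49 over all 24 libraries. bta-miR-2904 lay 659 bases from hsa-miR-6087 on chromosome 18. For hsa-miR-1306-3p they were bta-miR-93 (0.63), bta-miR-1307 (0.62) and bta-miR-339b (0.62). bta-miR-1306, placed 40 bases away, was not among these nearest rows. Its r is not given here, so whether it moved with hsa-miR-1306-3p is not shown.

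**Figure D5:**
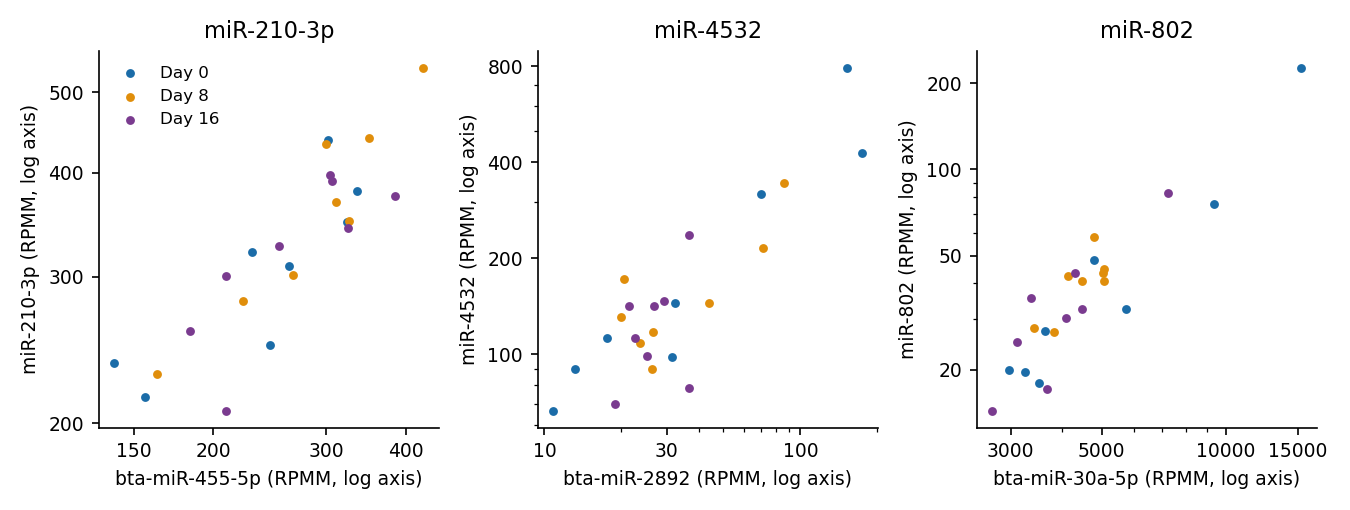
RPMM of miR-210-3p, miR-4532 and miR-802 (vertical, log axis) against the bovine row nearest to each (horizontal, log axis) in 24 libraries, coloured by day. In the panel of miR-802 the Day 0 library of heifer 16 stands apart at 226 RPMM.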

How the data were processed

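Libraries were made from the plasma RNA of 8 heifers (Days 0, 8 and 16 each) with the Illumina TruSeq small-RNA kit and sequenced as 36-base single-end reads. The authors removed reads without adaptor or with undetermined bases and mapped the rest with sRNAtoolbox 1.0 (Bowtie 0.12.9 in the submitters' processing notes), allowing 1 mismatch, to bovine and human miRBase 20 entries. The methods name assembly UMD 3.1, whereas the deposited table names no build. The authors deposited raw counts and RPMM (an RPM value per 1000000 reads mapped to the genome), with bovine and human rows merged. No column of single samples was left unused (0).

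The members and lists were chosen with earlier results of these data known. Rows with a mean of at least 5 counts (358) were scaled by TMM and tested in R 4.3.3 with glmQLFTest (edgeR 4.0.16), in a model of heifer plus day with Benjamini-Hochberg adjustment over all rows. The SE is the absolute log2 fold change divided by the square root of F. The heifer is the block because the 3 libraries come from 1 animal. Residual profiles had a median correlation of 0.288 within a heifer and −0.0333 between heifers. Summed levels and numbers detected were compared by all 256 sign changes over heifers. Alternatives used DESeq2 1.42.0, limma 3.58.1 (pseudocounts of 1 and 0.1, and voom), other scalings and limits, no block, and each heifer left out. The fit was tested on simulated data with changes on Day 0 but no differences between heifers, so that test does not bear on the block. Other values used Python 3.11.15, numpy 2.4.6, pandas 2.3.3, scipy 1.17.1 and matplotlib 3.10.9.

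Named are all human rows with a mean of at least 5 counts, the 5 others with the highest single count, bovine rows of the same number, pairs with a total of at least 100 that differ by at most 3 counts, and for each of the 5 most counted human rows the 3 nearest bovine rows. Other rows named for a shared hairpin, start or name, or for a tie in the highest count, were chosen after their values were seen. Bovine sequences come from the isomiR list of the study, and names of bovine miRNA genes from RefSeq (ARS-UCD2.0). Total counts of 1299679 to 4700764 per library set the precision.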

Additional observations from a re-analysis of the deposited data

Results flagged for a closer look

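In 63 groups of 8 libraries (a human-named row, or one of their summed measures, on 1 day), 9 held a library far from the others. The rule flags about 1 in 20 groups if values are independent and normally distributed. Levels of several rows were skewed and some rows held nearly the same counts, so the 9 cannot be set against that rate. In heifer 16 the flagged values were hsa-miR-802 at 225.99 RPMM on Day 0 (median of the day 30.0) and 82.97 on Day 16 (31.5), and hsa-miR-4532 at 236.17 on Day 16 (127). For hsa-miR-4792 they were heifer 18 on Day 0 at 209.72 RPMM (33.8) and heifer 34 on Day 16 at 140.03 (28.5), where hsa-miR-652-3p also stood apart at 3.7 (1.30). In heifer 22 on Day 16 hsa-miR-1260b and hsa-miR-1260a, whose counts are nearly the same, were both at 10.27 (4.39). In heifer 20 on Day 8 hsa-miR-210-5p was at 8.98 (6.34).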

How the results depend on the processing

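The number of human-named rows past the adjusted test was 0 for each comparison of days under every alternative run. Without the heifer block it was also 0, and for the effect of heifer it was 4 when the day term was left out. Between heifers the 3 rows became 1 with the limit of 25 RPMM in 6 of 8 libraries of each day, where fewer rows were tested, and 5 with DESeq2. Without Day 0 of heifer 16, an alternative chosen after seeing the data, it was 4, and it was 2 to 4 with a heifer left out.

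For hsa-miR-210-3p the difference of Day 16 from Day 8 turned negative with no limit on low counts (−0.036), total counts (−0.16), RLE (−0.0042), totals that leave out miR-486 (−0.0012), DESeq2 (−0.0044) and limma with a pseudocount of 1 (−0.16) or 0.1 (−0.16), and was −0.090 to 0.049 with a heifer left out. Day 16 against Day 0 was −0.023 with total counts. These values were not past the threshold in either direction, and the cause was not tested. With a heifer left out, the summed level differed by −144 to 48.9 RPMM for Day 8 less Day 0, −228 to −84.0 for Day 16 less Day 0 and −150 to −59.8 for Day 16 less Day 8. The number detected on Day 16 less Day 0 was −0.429 to 0.714. Depth limits the rarer rows, since 0 counts in the smallest library allow up to 1.32 RPMM.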
